A study of Rattus norvegicus with 46 samples.

Results

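The duodenal epithelium moves bicarbonate, chloride, sodium and protons through a small set of transporters and carbonic anhydrases, and 10 of their genes are described here along the villi of iron-deficient, iron-fed and mutant rats. They are Cftr, Slc26a3, Slc26a6, Slc4a4, Slc4a7, Slc12a2, Slc9a2, Slc9a3, Car2 and Car4. The genes were chosen by symbol, with earlier results of these data known. Each probe set annotated to exactly 1 of these symbols was taken. All 10 were found among the 14217 genes of the array, with 14 of its 31042 probe sets that do not serve as controls. Slc4a4, Slc4a7, Car2 and Car4 have 2 probe sets each, and the brightest stands for the gene unless the second is named.

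Each rat gave RNA from pooled cryostat sections of the uppermost of 3 parts of the duodenal villi (the top) and from sections of the lowest part (the bottom), with 1 Affymetrix array for each. The control, iron-deficient and iron-repleted groups were Wistar rats (++), 1 month old at allocation. Controls ate a normal diet, and iron-deficient rats ate a low-iron diet and were bled of 2 to 3 ml every 3 days for 4 weeks. Iron-repleted rats went through the same treatment and then had 50 µM ferric ammonium citrate in their drinking water during the last 3 days. The Belgrade groups (bb) were bred on the Wistar background, they carry an inherited mutation of the iron transporter gene Slc11a2, and their age was not stated. They ate a normal diet, and 2 of the 3 groups were given iron for the last 3 or 6 days. All rats were fasted overnight. There were 4 control, 4 iron-deficient, 3 iron-repleted, 4 Belgrade, 4 Belgrade rats given iron for 3 days and 3 given iron for 6 days. Control rats 1 and 2 differed so little from each other in both segments that they were averaged, and so were Belgrade rats 1 and 2, which leaves 20 samples from 22 rats (3, 4, 3, 3, 4 and 3 in that order). An additional ++ rat, from a separate experiment, gave 1 array labelled lower crypt and 1 labelled upper crypt. The labels do not say whether rats shared a litter or a day of preparation.

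Bicarbonate secretion neutralizes gastric acid as it enters the duodenum. In the epithelial cell carbonic anhydrases make bicarbonate and protons from carbon dioxide and water, sodium-bicarbonate cotransporters load bicarbonate across the basolateral membrane, and the CFTR channel and the SLC26 exchangers pass chloride and bicarbonate across the apical membrane. Sodium-proton exchangers absorb sodium in return for protons, while the basolateral sodium-potassium-chloride cotransporter fills crypt cells with the chloride that they secrete. Secretion is classically placed in the crypts and absorption on the villus.

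Promoter sequences of 7 of the 10 genes were at hand in RefSeq (build GRCr8, 250 bases before to 50 after a gene's start), with 8 entries because Slc9a2 has 2 starts. The pair shown belongs to the apical sodium-proton exchangers Slc9a2 and Slc9a3, 2 related genes whose differences along the villus were unlike in size. Both are printed 5′ to 3′ on the gene's strand, with capitals at each GGGCGG, the core of the GC box bound by Sp1-type factors, read on either strand.

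Slc9a2, first start, chr9:50427362-50427661, plus strand: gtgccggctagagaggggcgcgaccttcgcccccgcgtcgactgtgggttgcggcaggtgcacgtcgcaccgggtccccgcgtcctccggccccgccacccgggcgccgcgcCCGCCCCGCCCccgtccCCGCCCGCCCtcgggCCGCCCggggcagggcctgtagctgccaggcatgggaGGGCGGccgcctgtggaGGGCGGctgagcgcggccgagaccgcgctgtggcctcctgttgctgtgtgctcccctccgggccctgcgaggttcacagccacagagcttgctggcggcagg

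Slc9a3, chr1:30995953-30996252, minus strand: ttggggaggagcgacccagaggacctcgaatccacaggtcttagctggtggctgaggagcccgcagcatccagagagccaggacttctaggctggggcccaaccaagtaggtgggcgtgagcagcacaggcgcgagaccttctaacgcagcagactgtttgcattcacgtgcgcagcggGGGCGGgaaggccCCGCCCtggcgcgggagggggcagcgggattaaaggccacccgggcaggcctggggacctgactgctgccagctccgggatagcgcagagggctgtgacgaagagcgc

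The Slc9a2 window holds 7 such matches, some of which overlap by a base or more, and is 78.3% G or C, and the Slc9a3 window holds 2 and is 66.7% G or C. The second Slc9a2 start, chr9:50458191-50458490, has 0 matches and 48.0% G or C. Over all 33469 promoter windows of this length 33.1% hold at least 1 match, with a median of 2 matches in those, and the median G or C content is 51.7%. Among the other entries Slc12a2 has 3 matches, Cftr 2, and Slc26a3, Slc4a4 and Car4 0. Car4 is the 1 entry with TATAAA on either strand, which 14.2% of all windows hold. These are matches of letters, and no binding was measured.

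Levels are given as log2 of the quantile-normalized intensity, after 44 intensity units had been added to every value. Differences are of log2 levels, and a gene was called at an adjusted p under 0.05 (limma, Benjamini-Hochberg over 26517 probe sets). All 14 probe sets passed the filter on dim values, but those of Car4 exceeded the filter level of 8.99 in only 12 and 7 of 44 villus arrays, so its values lie near the floor of the array. Array medians ranged from 597 to 1179 intensity units. The segment labels were checked against marker genes. All 7 villus enterocyte markers on the array (such as Apoa4, Ada and Alpi) were higher at the top and all 8 crypt and cycling markers were lower there. The mean level of the 12 smooth muscle and stroma markers was between 12.51 and 13.29 in the top arrays and between 12.65 and 15.71 in the bottom arrays, with control rat 3 (15.71) and iron-repleted rat 3 (15.39) highest. The mean of 11 exocrine pancreas markers reached 14.43, 15.86, 12.67, 13.05 and 12.07 in the bottom arrays of control sample 1-2, iron-deficient rat 1, Belgrade rat 3, 3-day rat 4 and 6-day rat 2, and was 8.61 or less in the other 15. Xist, which marks female tissue, was high in 1, 0, 1, 1, 1 and 3 samples of the 6 groups.

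The difference between villus top and villus bottom within each rat was the largest pattern in these genes. Averaged over the 6 groups, 7 of the 10 were higher at the top, 1 was lower and 2 were not called. The 7 include Car4, which lies near the floor and passed the filter mainly through top arrays. Of 12975 genes tested, 63.2% were called in this comparison, 26.9% as higher and 36.3% as lower at the top. So a call here is common, and the sizes say more than the number of calls. The median difference was 1.02 over the 10 genes and -0.07 over all genes. In such sections fewer cells of a type and less RNA per cell cannot be told apart.

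**Figure D1:**
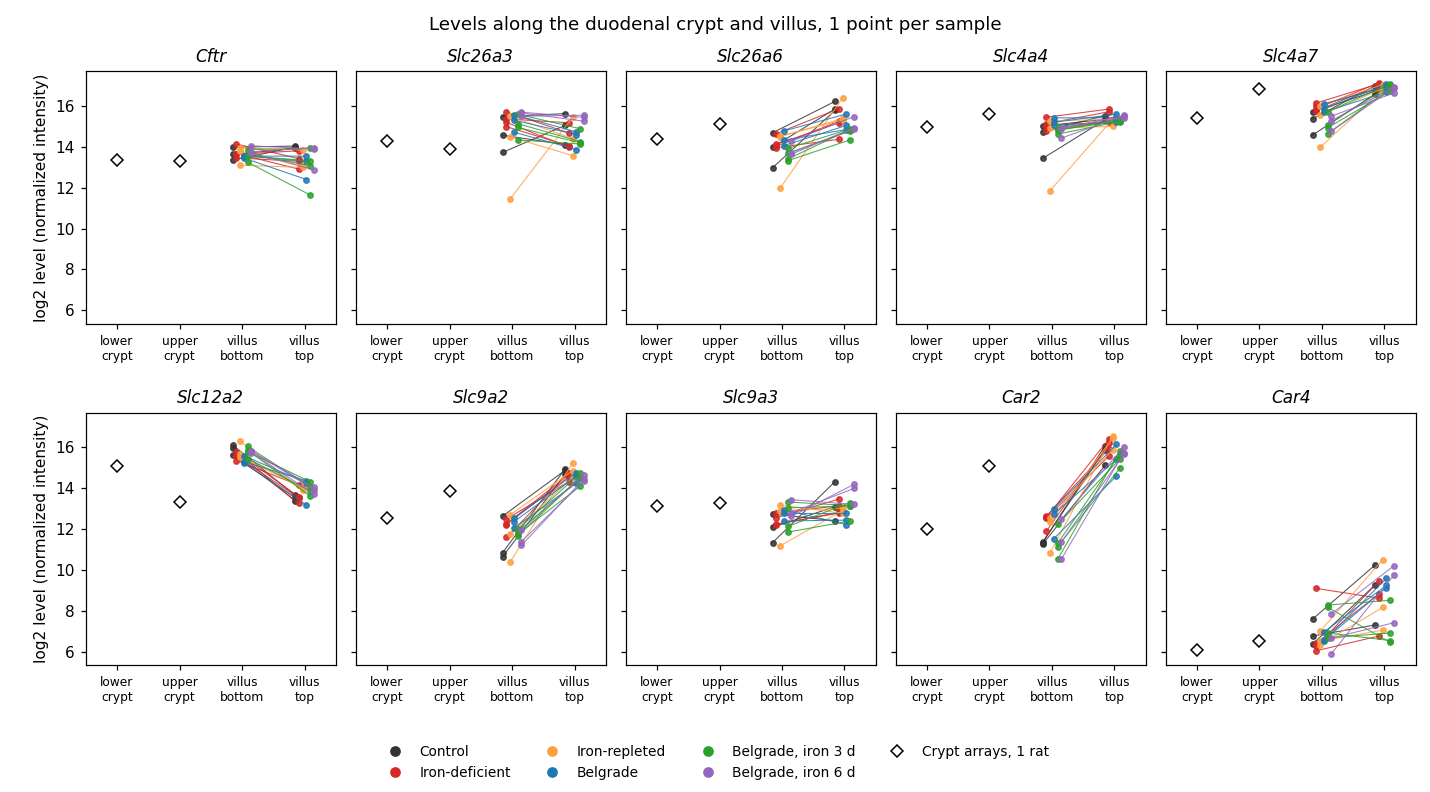
Log2 level of each gene (vertical axis) in the 2 crypt arrays (open diamonds, 1 rat) and in the villus bottom and top of 20 samples, coloured by group, with a line joining the segments of 1 sample. The lines of Car2 and Slc9a2 climb and those of Slc12a2 descend in every sample, while those of Cftr, Slc26a3 and Slc9a3 run both ways.

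Car2, the cytosolic carbonic anhydrase that supplies bicarbonate and protons, had the steepest rise towards the top. In control samples 1-2, 3 and 4 its level was 15.90, 15.13 and 16.09 at the top and 11.36, 11.25 and 11.33 at the bottom. Iron-deficient rats 1 to 4 had 15.94, 16.41, 15.58 and 16.23 at the top and 12.64, 12.57, 12.53 and 11.90 at the bottom. The iron-repleted rats had 16.45, 15.89 and 16.55 at the top and 12.35, 12.54 and 10.84 at the bottom. Every top value lay above every bottom value, in the Belgrade groups as well. Belgrade samples 1-2, 3 and 4 had 16.15, 14.60 and 15.42 at the top and 12.99, 11.53 and 12.74 at the bottom. Those given iron for 3 days had 15.84, 15.45, 15 and 15.70 against 10.52, 12.23, 11.14 and 11.30, and those given it for 6 days 15.66, 16.03 and 15.75 against 11.37, 12.49 and 10.53. The mean difference was 3.99 ± 0.17 (SE), 15.9-fold, higher at the top in 20 of 20 samples (adjusted p = 1.03e-11, limma). Its second probe set gave 4.02. By size of the difference Car2 ranked 21 of 12975 genes.

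Among the 6 top groups the order of the Car2 means was iron-repleted (16.30), iron-deficient (16.04), 6-day Belgrade (15.82), control (15.71), 3-day Belgrade (15.50) and Belgrade (15.39). No neighbours in that order differed by more than their spread. The bottom means ran from 12.42 (Belgrade) and 12.41 (iron-deficient) to 11.31 (control) and 11.30 (3-day Belgrade), again with every step within the spread.

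Car4, a carbonic anhydrase anchored to the outer face of the apical membrane, was near the floor. Its top levels had a lowest value of 6.46, and its highest were 10.50 in iron-repleted rat 2 and 10.24 in control sample 1-2. At the bottom 1 sample, iron-deficient rat 1, stood at 9.09 and the others at 5.89 to 8.28. The mean difference was 1.67 ± 0.28 (SE, adjusted p = 6.52e-05, limma), higher at the top in 17 of 20 samples. Only that 1 bottom sample exceeded the filter level of 8.99, so this probe set passed the filter mainly through top arrays, where it is high. Its call is therefore no independent support for a difference. The second probe set differed by only 0.15 (95% interval -0.64 to 0.95, adjusted p = 0.759), so the 2 probe sets disagree. The group means of the brighter probe set were 1.46 to 2.65 in 5 groups and -0.40 in Belgrade rats given iron for 3 days, whose 4 samples ran from -1.71 to 0.24 (95% interval -1.70 to 0.90, adjusted p = 0.697, limma).

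Slc9a2, an apical sodium-proton exchanger, followed Car2 in size. Control samples had 14.88, 14.95 and 14.68 at the top and 12.64, 10.85 and 10.65 at the bottom. Iron-deficient rats had 14.76, 14.57, 14.33 and 14.68 against 11.59, 12.22, 12.49 and 12.26, and iron-repleted rats 14.53, 14.86 and 15.24 against 11.74, 12.70 and 10.39. Its top levels were close together in all 6 groups, with group SDs of 0.14 to 0.36, and its bottom levels were wide apart in the control (SD 1.10) and iron-repleted (SD 1.16) groups. In the Belgrade rats the top levels were 14.77, 14.24 and 14.59 and the bottom levels 12.53, 12.05 and 12.36. With iron for 3 days they were 14.73, 14.51, 14.10 and 14.52 against 11.99, 11.86, 11.75 and 11.66. With iron for 6 days they were 14.46, 14.67 and 14.36 against 11.20, 11.96 and 11.39. The difference was 2.84 ± 0.16 (SE), 7.14-fold, rank 104 of 12975, in 20 of 20 samples (adjusted p = 1.81e-10, limma).

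Slc9a3, the main sodium-absorbing exchanger of the brush border, had a far smaller difference. Its top levels were 12.22 to 14.33 and its bottom levels 11.18 to 13.44, and the ranges overlapped. The mean difference was 0.55 ± 0.20 (SE, adjusted p = 0.0247, limma), with 15 of 20 samples higher at the top. This call ended without control rat 3 (0.41, adjusted p = 0.0519), without iron-repleted rat 3 (0.45, adjusted p = 0.0557), and without 6-day rat 1 (0.49, adjusted p = 0.0545). Without both control rat 3 and iron-repleted rat 3 it was 0.30 (adjusted p = 0.0972). The 3 samples named are those with the 3 highest stroma levels at the bottom, 15.71, 15.39 and 14.82.

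Slc4a7, an electroneutral sodium-bicarbonate cotransporter, was higher at the top by 1.48 ± 0.12 (SE), 2.78-fold, in 20 of 20 samples (adjusted p = 1.01e-08, limma). Top levels lay between 16.60 and 17.15 and bottom levels between 13.98 and 16.16, without overlap. The second probe set gave 2.22 (adjusted p = 9.17e-10, limma), also in 20 of 20. Slc4a4, the electrogenic cotransporter that carries sodium with bicarbonate across the basolateral membrane, differed less. It was higher at the top by 0.67 ± 0.18 (SE, adjusted p = 0.0046, limma) in 20 of 20 samples, and by 1.04 (adjusted p = 4.01e-05, limma) in its second probe set. In iron-repleted rat 3 its bottom level was 11.87 and in control rat 3 13.44, against 14.44 to 15.46 in the other 18 samples. Without these 2 samples the difference was 0.41 (adjusted p = 0.00015, limma).

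Slc26a6, an apical exchanger of chloride for bicarbonate and other anions, was higher at the top by 1.37 ± 0.19 (SE), 2.58-fold, in 20 of 20 samples (adjusted p = 7.3e-06, limma). Control samples had 16.24, 15.80 and 15.87 at the top and 14.70, 12.99 and 14.00 at the bottom.

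Slc26a3, the chloride-bicarbonate exchanger whose loss causes congenital chloride diarrhoea, did not share the rise of Slc26a6. In control samples 1-2, 3 and 4 its level was 14.12, 15.06 and 15.64 at the top and 14.58, 13.74 and 15.49 at the bottom. Iron-deficient rats had 14.06, 14.00, 14.69 and 15.19 at the top and 15, 15.21, 15.72 and 15.38 at the bottom. All 4 were lower at the top. The iron-repleted rats had 14.41, 13.58 and 15.45 at the top and 15.51, 14.50 and 11.46 at the bottom, so that rat 3 ran opposite to rats 1 and 2. Belgrade samples had 13.88, 14.61 and 14.74 against 14.73, 15.32 and 15.59. With iron for 3 days the values were 14.15, 14.90, 14.27 and 14.21 against 14.35, 15.61, 15.15 and 14.96. With iron for 6 days they were 15.56, 15.45 and 15.27 against 15.51, 15.71 and 15.67. In all, 16 of 20 samples were lower at the top. The 4 others were control rats 3 and 4, iron-repleted rat 3 and 6-day rat 1.

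The mean difference of Slc26a3 over all samples was -0.25 (95% interval -0.78 to 0.28, adjusted p = 0.43, limma), which was not called. Without iron-repleted rat 3 it was -0.53 (adjusted p = 0.00057, limma), and Slc26a3 was then called lower at the top. Without both that rat and control rat 3 it was -0.61 (adjusted p = 2.15e-05, limma). With median centring instead of quantile normalization the sign turned, to 0.08 (adjusted p = 0.779, limma). Without those 2 samples Slc26a3 joined Slc12a2 as called lower at the top, and Slc9a3 was no longer called higher. Leaving those 2 samples out was chosen after the data had been seen.

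Slc12a2, the basolateral sodium-potassium-chloride cotransporter, was the 1 gene called lower at the top with all samples. Control samples had 13.54, 13.65 and 13.37 at the top and 15.61, 16.12 and 15.95 at the bottom. Iron-deficient rats had 13.52, 13.27, 14.15 and 13.58 against 15.59, 15.59, 15.36 and 15.78, and iron-repleted rats 14.04, 14.02 and 13.91 against 15.67, 15.54 and 16.31. Every bottom value was above every top value. Belgrade samples had 14.37, 14.27 and 13.18 against 15.30, 15.59 and 15.23. With iron for 3 days they had 14.32, 13.88, 14.06 and 13.61 against 15.79, 15.44, 16.05 and 15.86. With iron for 6 days they had 14.05, 13.72 and 13.94 against 15.81, 15.73 and 15.82. The difference was -1.88 ± 0.10 (SE), 3.69-fold lower at the top, in 20 of 20 samples (adjusted p = 1.11e-10, limma), and ranked 527 of 12975 counted from the most negative.

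Cftr, the cyclic AMP-regulated chloride and bicarbonate channel, differed little along the villus. Its top levels ran from 11.65 to 14.05 with a median of 13.38, and its bottom levels from 13.11 to 14.15 with a median of 13.66. The lowest top value belonged to 3-day Belgrade rat 4. The difference was -0.27 ± 0.12 (SE, 95% interval -0.52 to -0.02), lower at the top in 13 of 20 samples, and was not called (adjusted p = 0.0631, limma). It was called when any 1 of iron-deficient rat 3 (-0.30, adjusted p = 0.0433), Belgrade sample 1-2 (-0.31, adjusted p = 0.0477), 3-day rat 1 (-0.31, adjusted p = 0.0377) or 6-day rat 1 (-0.31, adjusted p = 0.0465) was left out.

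**Figure D2:**
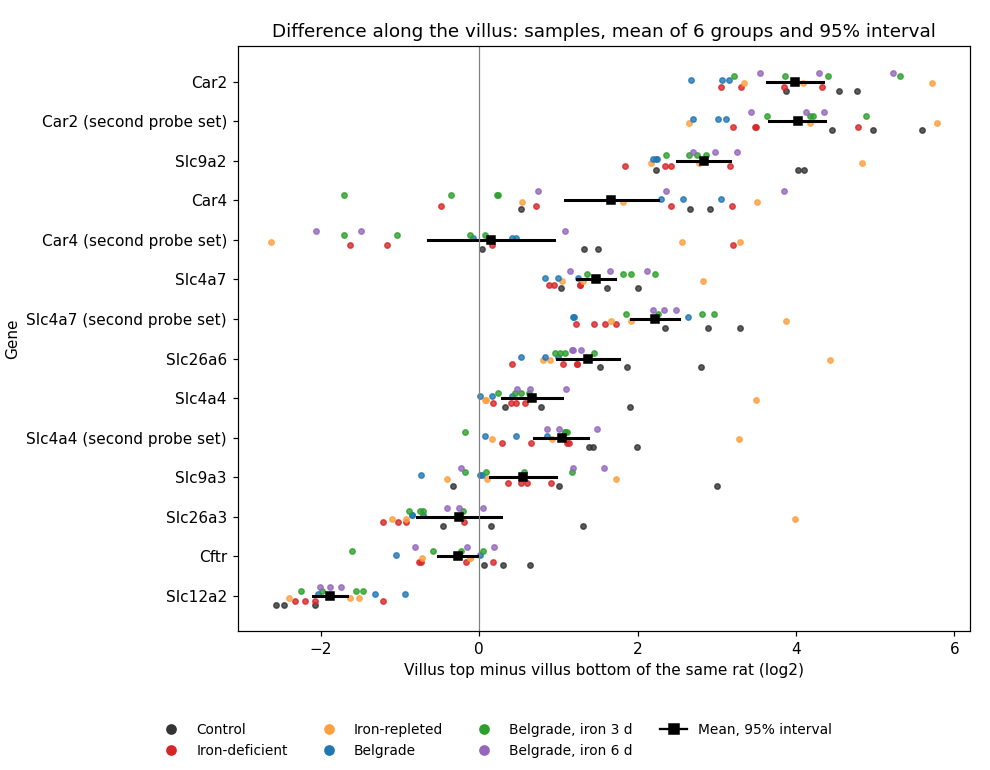
Villus top minus villus bottom of the same rat (horizontal axis, log2) for the 14 probe sets, with 1 coloured point per sample, the mean of the 6 group means as a black square and its 95% interval as a bar. Car2 lies at 3.99 and Slc9a2 at 2.84, Slc12a2 at -1.88, and iron-repleted rat 3 (orange, right) stands apart in Slc26a3, Slc4a4 and Slc26a6.

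Within single groups 4 genes were called in each of the 6, and always in the same direction, which were Car2, Slc9a2, Slc4a7 and Slc12a2. Counts for the 10 genes were 5 higher and 1 lower in controls, where 31.8% of all genes were called (13.3% higher and 18.5% lower). They were 3 and 1 in iron-deficient rats (37.1%, with 15% higher and 22% lower) and 5 and 1 in iron-repleted rats (40.5%, with 15.9% and 24.6%). They were 4 and 1 in Belgrade rats (22.5%, with 8.55% and 13.9%), 3 and 1 after 3 days of iron (33.2%, with 13.6% and 19.5%) and 4 and 1 after 6 days (29.9%, with 11.9% and 18%). The Car2 difference was 4.40 in controls, 3.63 in iron-deficient, 4.39 in iron-repleted and 2.97 in Belgrade rats, then 4.20 and 4.35 after 3 and 6 days of iron. For Slc12a2 the values were -2.37, -1.95, -1.85, -1.44, -1.82 and -1.88. Whether the difference along the villus itself depended on iron or genotype was tested for iron-deficient against control and Belgrade against control. In both tests 0 of 10 genes were called (limma, 0% of all genes), with 0 and 3 of the 10 at an unadjusted p under 0.05 (1354 and 1017 of 12975 genes). The 3 were Slc12a2 (0.93, 95% interval 0.16 to 1.71, adjusted p = 0.727), Car2 (-1.43, 95% interval -2.69 to -0.16, adjusted p = 0.747) and Slc9a2 (-1.23, 95% interval -2.45 to -0.02, adjusted p = 0.77), each a smaller step in Belgrade rats.

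The lowest bottom levels of many of these genes lay in the 2 samples highest in stroma markers. Iron-repleted rat 3 had the lowest bottom level of all 20 samples in 7 of the 10 genes, which were Cftr, Slc26a3, Slc26a6, Slc4a4, Slc4a7, Slc9a2 and Slc9a3, and the highest in Slc12a2. How many of all genes were lowest in that array is not given, so this count is not shown to be particular to these 10 genes. Control rat 3 had the next lowest in Slc26a3 (13.74), Slc26a6 (12.99), Slc4a4 (13.44), Slc4a7 (14.59) and Slc9a3 (11.34). The enterocyte markers had a mean level of 12.64 in the bottom array of iron-repleted rat 3 and 13.56 in that of control rat 3, the lowest of the 20, beside a median of 15.11. The part of stroma in these values was not tested beyond leaving the 2 samples out, after which Car2 (3.92), Slc9a2 (2.65), Slc4a7 (1.35), Slc26a6 (1.11) and Slc12a2 (-1.83) kept their calls.

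**Figure D3:**
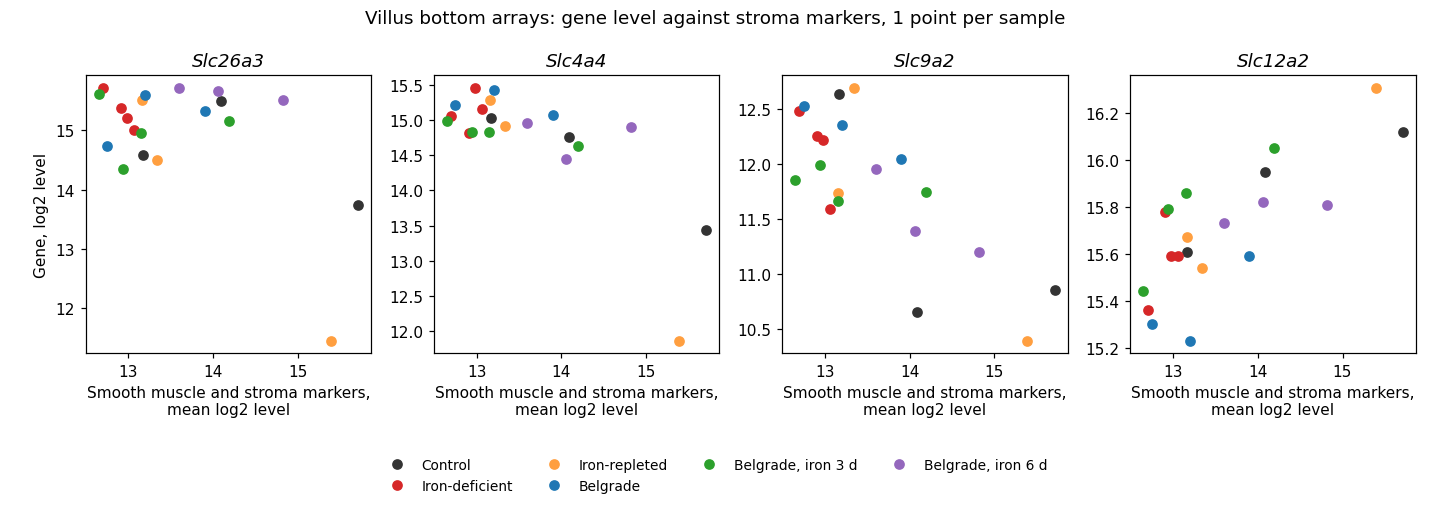
Log2 level of 4 genes in the villus bottom arrays (vertical axis) against the mean log2 level of 12 smooth muscle and stroma markers in the same array (horizontal axis), 1 point per sample, coloured by group. Iron-repleted rat 3 and control rat 3, at stroma levels of 15.39 and 15.71, are the 2 points on the right, low in Slc26a3 and Slc4a4 and high in Slc12a2.

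The 2 crypt arrays have no replicate, and nothing was tested on them. Their markers do not follow their labels in full. The array labelled upper crypt had enterocyte markers at 16.68, within the range of the villus tops (16.62 to 17.35), and cycling markers at 10.64, again within that of the tops (9.60 to 11.38). The array labelled lower crypt had 15.31 and 12.53, within the ranges of the villus bottoms (12.64 to 15.72 and 12.02 to 13.21). Of the 10 genes, 9 lay within the range of the villus tops in the array labelled upper crypt. In that array 4 also lay within the range of the bottoms. In the array labelled lower crypt 9 lay within the range of the bottoms, and 4 also within that of the tops. The ranges of tops and bottoms were separate in only 4 of the 10 genes, so for the others a level can lie within both. Car2 was at 12 in the array labelled lower crypt and 15.11 in that labelled upper crypt, Slc9a2 at 12.54 and 13.88, Slc4a7 at 15.44 and 16.83, and Slc12a2 at 15.09 and 13.33. The Slc12a2 value of 15.09 was just under the lowest villus bottom, 15.23. Differences were smaller in Slc26a6 (14.38 and 15.12), Slc4a4 (14.96 and 15.61) and Slc26a3 (14.30 and 13.89). Cftr (13.38 and 13.32) and Slc9a3 (13.14 and 13.28) were nearly level, and the brighter Car4 probe set was at the floor (6.07 and 6.50). The second Car4 probe set was at 6.16 and 8.91, the latter just under the filter level of 8.99.

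Iron supply and genotype were compared through the mean of top and bottom of each sample and then through each segment alone. On the mean, 0 of the 10 genes were called in any of the 7 comparisons (limma). Over all genes 0.416% were called in iron-deficient against control rats, 0.0848% in iron-repleted against control, 0.0154% in Belgrade against control and 0% in the other 4, so calls were rare throughout. At an unadjusted p under 0.05 there were 2, 0 and 0 of the 10 in those 3 comparisons, beside 13.4%, 13.9% and 6.92% of all genes. There were 3 in iron-repleted against iron-deficient rats (14% of all genes), 0 in Belgrade against iron-deficient (4.03%), and 1 each after 3 days (2.77%) and 6 days (4.23%) of iron against Belgrade. In the top arrays alone 0 of 10 were called as well (1.27%, 0.231% and 0.146% of all genes in those 3 comparisons against controls and 0% in the other 4). In the bottom arrays 0 of 10 were called too, with 0.00771% of all genes called in Belgrade against control and in 6-day against untreated Belgrade rats, and 0% in the other 5. Over the 7 comparisons 0 to 3 of the 10 genes had an unadjusted p under 0.05 in either segment, beside 1.96% to 16.3% of all genes in the tops and 3.95% to 13.7% in the bottoms.

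**Figure D4:**
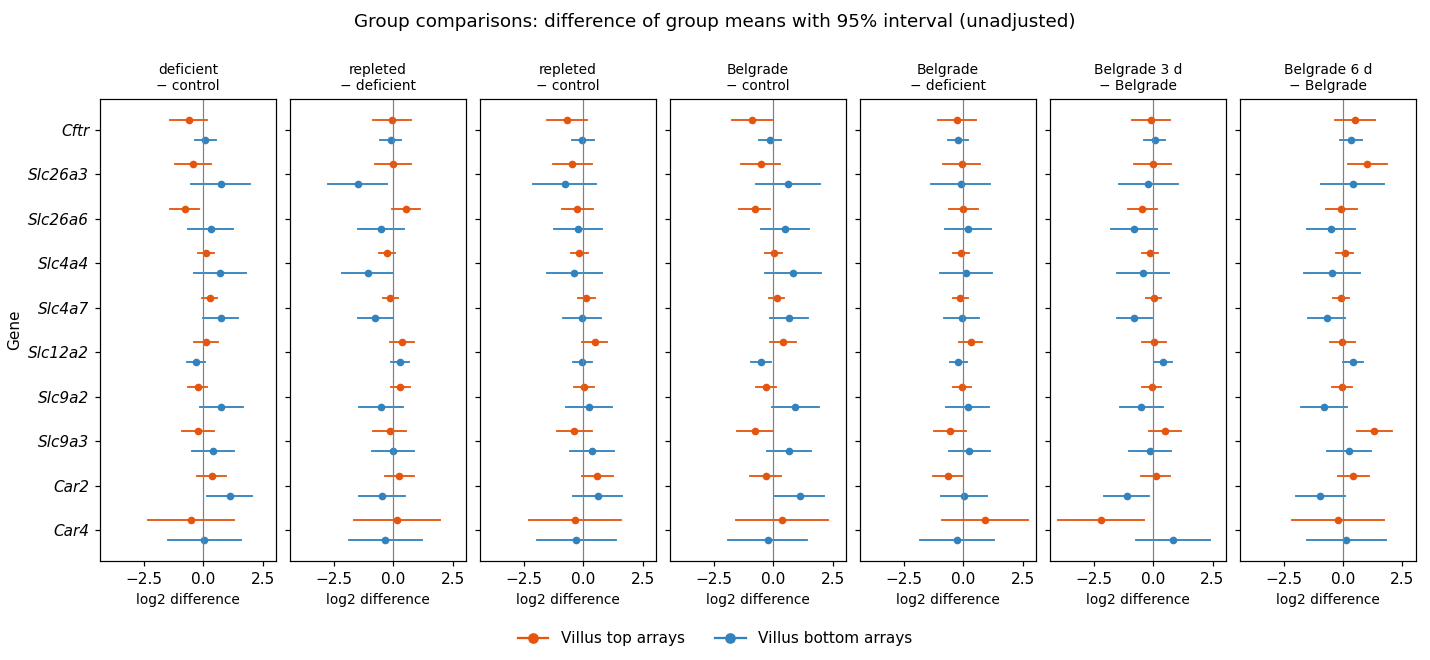
Difference of group means (horizontal axis, log2) with its unadjusted 95% interval in 7 comparisons, for the villus top (orange) and the villus bottom (blue) arrays, for each of the 10 genes. None passed the adjusted threshold, and the bottom intervals of Slc26a3 and Slc4a4 are the wider ones beside their tops.

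Car2 had the lowest adjusted p of the 10 genes on the mean of both segments in iron deficiency, without a call. Its difference was larger at the bottom than at the top, but the difference between the segments was not called. At the villus bottom the 3 control samples lay between 11.25 and 11.36 and the 4 iron-deficient rats between 11.90 and 12.64, without overlap. The difference was 1.10 (95% interval 0.13 to 2.06, adjusted p = 0.32, limma), and at the top 16.04 faced 15.71 with overlapping samples. On the mean of both segments it was 0.72 (95% interval 0.12 to 1.31, adjusted p = 0.252), and 0.87 in the second probe set (adjusted p = 0.138). The second probe set at the bottom alone gave 1.5 (95% interval 0.59 to 2.41, adjusted p = 0.181), and was called there without iron-repleted rat 3 (1.5, adjusted p = 0.0387, limma). With all 22 rats counted separately and the rat number as a replicate block, Car2 was called (0.69, adjusted p = 0.0297, limma). That fit counts the near-identical rats separately, and the rat numbers do not show that rats of different groups belong together. Slc4a7 was the other gene without overlap at the bottom, with 14.59 to 15.72 in controls and 15.77 to 16.16 in iron-deficient rats (0.72, 95% interval -0.02 to 1.46, adjusted p = 0.402). Among all genes 12.6% had groups that did not overlap there, so 2 of 10 is near the background. Stroma markers at the bottom were at 13.17, 15.71 and 14.09 in the control samples and at 12.70 to 13.06 in the iron-deficient rats, and red blood cell markers, whose cells are rich in carbonic anhydrase, at 9.10 to 9.56 and 9.27 to 10.24. Enterocyte markers at the bottom were at 13.56 to 15.23 in controls and 14.81 to 15.44 in iron-deficient rats, with a median difference of 0.85 over 7 genes. The 4 markers of Brunner's gland and gastric mucosa on the array, 1 of them below the filter, did not overlap in their mean, at 7.99 to 8.46 and 8.87 to 10.68. The part of these cells in the differences was not tested.

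At the villus top Cftr was lower in every other group's mean than in controls. The control samples stood at 14.00, 13.93 and 14.05, and the iron-deficient rats at 12.92, 13.30, 13.82 and 13.43, without overlap (-0.63, 95% interval -1.43 to 0.17, adjusted p = 0.546). It was 1 of 10 genes without overlap, beside 15.4% of all genes. Iron-repleted rats had 13.85, 13.08 and 13 and Belgrade rats 13.56, 13.31 and 12.41, both below all controls too (17.8% and 17% of all genes did not overlap in these pairs of groups), at -0.68 (adjusted p = 0.438) and -0.90 (95% interval -1.76 to -0.04, adjusted p = 0.721). These comparisons share the 3 control samples, so they are not independent of each other. After 3 days of iron Belgrade rats had 13.93, 13.33, 13.09 and 11.65, and after 6 days 13.97, 12.89 and 13.91.

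Slc26a6 at the top was lower by 0.79 than controls both in iron-deficient rats (95% interval -1.39 to -0.19, adjusted p = 0.224) and in Belgrade rats (95% interval -1.43 to -0.14, adjusted p = 0.594), and was called in neither (limma). Controls had 15.80 to 16.24, Belgrade samples 15.62, 14.86 and 15.06, and iron-deficient rats 15.27, 15.19, 14.38 and 15.88, of which the last overlaps. With Cftr it made 2 of 10 genes without overlap between Belgrade and control tops (17% of all genes). At the bottom 3 of 10 did not overlap between Belgrade and control (15.6%), which were Slc4a4 (0.83, adjusted p = 0.781), Car2 (1.11, adjusted p = 0.747) and Slc12a2 (-0.52, 95% interval -0.92 to -0.11, adjusted p = 0.747). Crypt and cycling markers in these bottoms did not overlap either, at 12.66 to 12.98 in controls and 12.02 to 12.43 in Belgrade rats. Nor did red blood cell markers, at 9.10 to 9.56 and 9.62 to 11.24. Enterocyte markers, at 13.56 to 15.23 and 15.08 to 15.72, and stroma markers, at 13.17 to 15.71 and 12.75 to 13.90, overlapped. The part of these cells in the differences was not tested.

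Repletion and iron feeding gave no called member either. Against iron-deficient rats the iron-repleted rats were lower on the mean in Slc26a3 (-0.75, adjusted p = 0.33), Slc4a4 (-0.69, adjusted p = 0.297) and Slc4a7 (-0.45, adjusted p = 0.378, all limma). In each of the 3 the bottom array of iron-repleted rat 3 held the lowest value of all samples, 11.46, 11.87 and 13.98. In Belgrade rats given iron for 6 days Slc9a3 at the top was 14.19, 13.21 and 13.99, beside 12.80, 12.44 and 12.22 without iron. This difference of 1.31 (95% interval 0.58 to 2.04) left the groups without overlap, in 2 of 10 genes (11.5% of all genes), and had an adjusted p of 1 (limma). The other was Slc26a3, at 15.56, 15.45 and 15.27 beside 13.88, 14.61 and 14.74 (1.01, 95% interval 0.19 to 1.83, adjusted p = 1). After 3 days of iron Slc9a3 was at 12.40, 13.13, 13.30 and 13.15. At the bottom 5 of 10 genes did not overlap between 6-day and untreated Belgrade rats (13.7% of all genes). Slc4a4 (-0.48), Slc4a7 (-0.70) and Slc9a2 (-0.80) were lower and Cftr (0.32) and Slc12a2 (0.41) higher, each with an adjusted p of 0.994 (limma). After 3 days of iron 3 of 10 did not overlap there (6.95% of all genes), with Slc26a6 (-0.81), Slc4a4 (-0.42) and Slc9a2 (-0.50) lower at an adjusted p of 1 (limma). Stroma markers in these bottoms were at 12.75 to 13.90 without iron, 12.65 to 14.19 after 3 days and 13.60 to 14.82 after 6 days, and enterocyte markers at 15.08 to 15.72, 14.18 to 15.52 and 14.67 to 15.41. Crypt and cycling markers were at 12.02 to 12.43, 12.21 to 12.98 and 12.62 to 12.97 in the same order. Untreated and 6-day rats did not overlap in them. The part of these cells in the differences was not tested. At the top Car4 was the 1 gene of 10 without overlap after 3 days (3.71% of all genes), at 6.54, 6.91, 8.51 and 6.46 beside 9.58, 9.13 and 9.24 in untreated Belgrade rats. That difference of -2.21 (95% interval -4.02 to -0.40, adjusted p = 1, limma) lies partly below the filter level of 8.99. All 3 samples given iron for 6 days had high Xist, against 1 of 3 Belgrade samples without iron, so iron and sex cannot be told apart in that pair of groups.

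Beyond these 10, a list of 75 genes of acid-base and salt transport was counted, of which 61 were on the array and 56 were tested. Along the villus 21 were higher and 16 lower at the top, 66.1% of the 56 beside 63.2% of all genes, so the share is that of the background. The median was 0.13 for the list and -0.07 for all genes. The largest differences towards the top were in Clca4, of a family of regulators of calcium-activated chloride channels (3.71), Car1, a carbonic anhydrase also abundant in red cells (2.85), Car9, a carbonic anhydrase of the cell surface (2.56), and Pdzk1, a scaffold that binds apical transporters (2.45). Clca4 was at 17.08 to 17.46 in all 20 top arrays and at 11.26 to 15.52 at the bottom. Towards the bottom they were in Vip, a neuropeptide that stimulates secretion (-5.71), Clca1, a secreted goblet cell product that is also among the goblet cell markers (-2.76), and the basolateral potassium channels Kcnn4 (-2.70) and Kcnq1 (-2.64). Kcnn4 was at 12.61 to 13.55 at the bottom and at 8.83 to 11.84 at the top. Vip was highest, at 16.07 and 15.40, in the bottom arrays of iron-repleted rat 3 and control rat 3. All 8 were called (adjusted p at most 5.26e-07, limma) and stayed so in all 29 alternatives run.

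The list held 3 genes called in the top arrays of iron-deficient against control rats, 5.36% of 56, where 1.27% of all genes were called. It was chosen with earlier results of these data known, so its shares of calls are no test of the list. Guca2b, the peptide uroguanylin that raises cyclic GMP in enterocytes and thereby favours secretion over absorption, fell. Its top levels were 16.72, 16.65 and 16.48 in controls and 14.14, 13.82, 14.01 and 14.98 in iron-deficient rats. The difference was -2.38 ± 0.39 (SE), 5.21-fold (adjusted p = 0.00627, limma). No sample of the other 5 groups reached the controls. Iron-repleted rats had 14.93, 14.65 and 15.75 (-1.51, adjusted p = 0.099), and Belgrade rats 15.27, 14.16 and 14.04 (-2.13 ± 0.42 SE, 4.36-fold, adjusted p = 0.045, limma, where 0.146% of all genes were called). After 3 days of iron Belgrade rats had 15.84, 13.66, 14.10 and 14.01, and after 6 days 13.94, 14.06 and 14.19. Goblet cell markers in the tops were at 14.60 to 15.15 in controls and 15.32 to 15.74 in Belgrade rats, and red blood cell markers at 9.16 to 9.64 and 10.02 to 10.90, both without overlap, and their part in the Belgrade difference was not tested. At the bottom the control (14.97, 13.04 and 13.94) and iron-deficient levels (13.70, 13.95, 14.13 and 14.27) overlapped, with a difference of 0.03 (95% interval -0.96 to 1.01). The iron-deficient call was kept in 28 of 30 alternatives and lost without a trend in the variance (adjusted p = 0.0614) and without control sample 1-2 (adjusted p = 0.0597). The Belgrade call was kept in 13 of 30 alternatives. It was lost without any 1 of control sample 1-2 (adjusted p = 0.226), control rat 3 (0.105), control rat 4 (0.17), Belgrade rat 3 (0.252) or Belgrade rat 4 (0.281), without a trend in the variance (0.322), with median centring (0.091), and in 10 further alternatives with adjusted p up to 0.0677.

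Prkg2, a cyclic GMP-dependent protein kinase that acts on Cftr and Slc9a3, fell at the top in iron deficiency too. Controls had 14.64, 14.30 and 13.51 and iron-deficient rats 12.82, 12.59, 12.65 and 12.41, a difference of -1.53 ± 0.27 (SE), 2.89-fold (adjusted p = 0.00877, limma). Iron-repleted rats lay at 12.81, 13.06 and 13.26 (-1.11, adjusted p = 0.0813) and Belgrade rats at 14.15, 12.95 and 13.59 (-0.59, adjusted p = 0.764). Without control sample 1-2 the iron-deficient call was lost (-1.28, adjusted p = 0.0954). Ptger4, a prostaglandin E2 receptor coupled to cyclic AMP, rose in the same arrays. Its levels were 11.08, 11.19 and 11.98 in controls and 13.36, 13.71, 12.88 and 13.13 in iron-deficient rats (1.85 ± 0.42 SE, 3.61-fold, adjusted p = 0.0348, limma). That call held in 23 of 30 alternatives and was lost without control sample 1-2 (1.68, adjusted p = 0.189), control rat 3 (1.74, adjusted p = 0.154), iron-deficient rat 1 (1.82, adjusted p = 0.0892) or iron-deficient rat 2 (1.70, adjusted p = 0.126). The mean of the stroma markers in these top arrays was 12.85 to 13.29 in controls and 12.59 to 13.10 in iron-deficient rats, and that of the enterocyte markers 17.07 to 17.35 and 16.69 to 17.16. Red blood cell markers were at 9.16 to 9.64 in controls and 9.54 to 11.85 in iron-deficient rats, and lymphocyte and plasma cell markers at 9.92 to 10.56 and 9.01 to 9.56. The part of these cells was not tested. On the mean of both segments Car9 was the 1 gene of 56 called in any of the 7 comparisons, in iron-deficient against control rats (1.79% of the list, beside 0.416% of all genes). Its difference was larger at the bottom, where the enterocyte and stroma markers differed as given for Car2 and controls had 11.20, 10.17 and 10.30 and iron-deficient rats 11.93, 12.50, 12.52 and 12.02 (1.69, adjusted p = 0.111 for the bottom alone, limma). At the top the groups overlapped, and the difference between the segments was not called. The Car9 difference on the mean was 0.99 (adjusted p = 0.035, limma) and was called in 20 of 30 alternatives, and the call was lost without any 1 of control sample 1-2 (adjusted p = 0.0881), control rat 3 (0.135), control rat 4 (0.0723), iron-deficient rats 1 (0.0828), 2 (0.116) or 3 (0.0709), or 6-day rat 1 (0.0538).

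**Figure D5:**
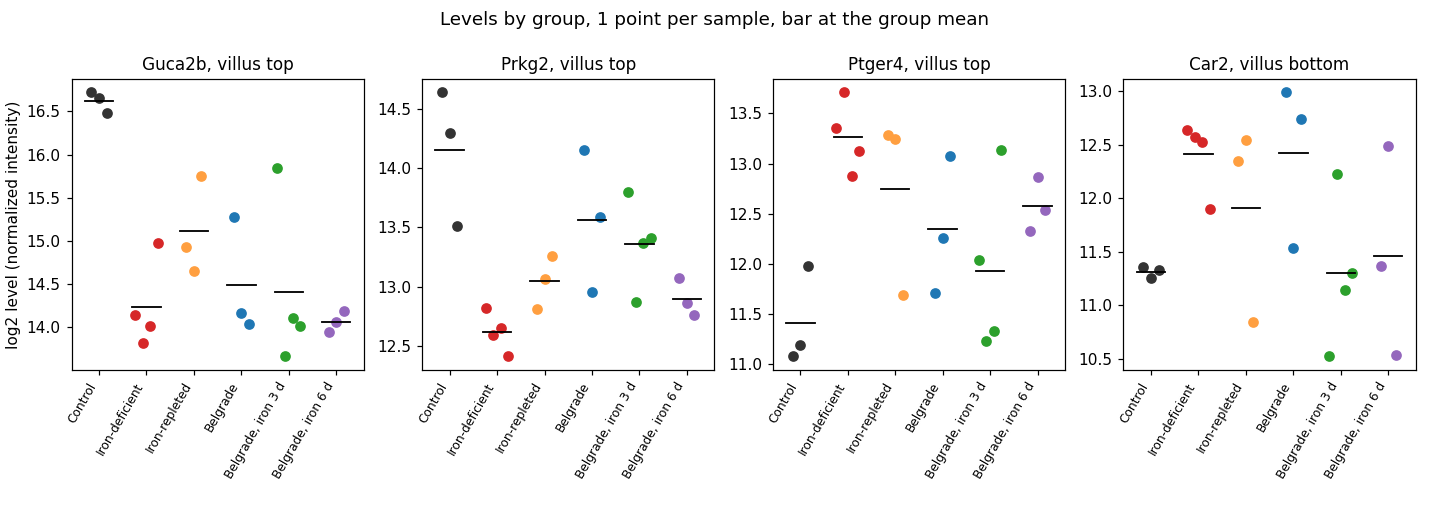
Log2 level by group (horizontal axis) with 1 point per sample and a bar at the group mean, for Guca2b, Prkg2 and Ptger4 in the villus top and Car2 in the villus bottom. Each panel has its own vertical scale. The 3 control samples lie above all others for Guca2b (16.48 to 16.72) and close together for Car2 (11.25 to 11.36).

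Genes whose levels ran most like each member over the 40 villus values (20 samples, 2 segments each) were found by Pearson correlation, as a description. The 2 segments of a sample share a rat, and most of this likeness is the step between top and bottom. For Car2 they were Aqp7 (0.977), Ptprr (0.977) and Ireb2 (0.971), and for Slc9a2 Hsd17b11 (0.975), Ace (0.974) and Ezr (0.973). Slc12a2 ran most like Eif5a (0.973), Hnrnpa0 (0.968) and Uba2 (0.967). Slc4a7 ran most like Heph (0.957), Tm4sf20 (0.956) and Me1 (0.952). The correlation was lower for genes with little difference along the villus, such as Cftr with Abr (0.782), Slc26a3 with Coro2a (0.766) and Slc9a3 with Mvp (0.796).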

How the data were processed

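The authors deposited 1 linear intensity for each probe set of an array, and their signal algorithm is not given in the sources used here. From the values, each array had been scaled to a trimmed mean of 2485 (42 arrays) or 2867 (4 arrays), which hides any shift common to most genes. Of 31099 probe sets, 57 controls were left out. Gene symbols came from the platform annotation, which can be old. A pseudocount of 44, which is the 10th percentile of villus intensities, preceded log2. Array medians spanned 0.93 on that scale, above the limit of 0.5, so villus arrays were quantile normalized with limma 3.58.1 in R 4.3.3 (tables read by version 1.17.8 of data.table), and the crypt arrays were put on the same scale. Probe sets above the 40th percentile in at least 3 villus arrays were kept, 26517 of 31042. Differences understate the change of dim genes.

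Rats of 1 group were averaged where the robust SD of their differences was under 0.2 in both segments (7524 bright probe sets). The averaged pairs had 0.168 to 0.192 and all other pairs 0.264 to 0.725.

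The 6 groups shared 1 limma fit (lmFit, then eBayes with a trend) for the top and bottom averaged per sample, and 1 for either segment alone. Top was set against bottom through the difference within a rat. P-values are two-sided and measure the spread between these samples. The rat number gave no pairing across groups, because same-number correlations ran from -0.0686 to 0.308 and exceeded 0.1 throughout in 0 of 15 group pairs. The fits were also run on simulated data with known changes, drawn as normal noise with a spread shared by all groups. That run cannot show how the fits behave with the unequal group spreads and single outlying samples of these data. Figures were drawn with matplotlib 3.10.9 in Python 3.11.15.

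The genes and lists were chosen with earlier results of these data known. Beyond the 10 genes, the text names from the transport list up to 4 called genes in each direction along the villus and those called between groups.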

Additional observations from a re-analysis of the deposited data

Results flagged for a closer look

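In 5 of the 56 groups of 4 samples checked, 1 rat stood apart from the other 3 by Dixon's criterion, and chance puts about 1 in 20 groups there. In the villus tops of Belgrade rats given iron for 3 days, rat 2 had a Slc26a3 level of 14.90 (others 14.15 to 14.27). In the same group rat 4 had 14.10 in the second Slc4a4 probe set (others 13.04 to 13.21), and rat 3 had 14.39 in the second Car2 probe set (others 15.16 to 15.30). At the villus bottom of iron-deficient rats, Car2 was 11.90 in rat 4 (others 12.53 to 12.64). Car4 there was 9.09 in rat 1 (others 6.04 to 6.41), whose bottom array also had the highest exocrine pancreas markers, 15.86, and the part of pancreas in this value was not tested.

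The Cftr difference between top and bottom ran in opposite directions in control and iron-repleted rats. It was above 0 in all 3 control samples (mean 0.33) and below 0 in all 3 iron-repleted rats (mean -0.32), a gap of 0.65, and this difference was not tested. A mean below 0 was not particular to iron-repleted rats. It was -0.37 in iron-deficient and -0.43 in Belgrade rats, and -0.59 and -0.26 after 3 and 6 days of iron. Each of those groups had samples on both sides of 0.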

How the results depend on the processing

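Along the villus, Car2, Slc9a2, Slc4a7, Slc26a6, Slc4a4, Car4 and Slc12a2 kept direction and call in all 29 alternatives (pseudocount, scaling, filter, trend, 22 rats, no replicate block, each sample left out, both stroma-high samples left out). Slc9a3 kept its call in 25, while Cftr was called in 4 and Slc26a3 in 2. For Car4 this concerns the brighter probe set only, and the second was called in 0 of the 29 and changed sign in 4. Between groups 0 of the 10 genes were called with any sample left out. With 22 rats and the rat number as a replicate block, Car2 was called in iron-deficient against control rats. That fit counts the near-identical rats separately, and the share of all genes called in it is not set beside the call. Leaving out each sample in turn moved the number of genes called along the villus in Belgrade rats between 3 (without any 1 of its own samples) and 7 (without iron-repleted rat 3), from 5. Without the 2 samples highest in stroma at the bottom, chosen after the data were seen, it was 7 instead of 4 in iron-deficient rats and 7 instead of 4 in rats given iron for 3 days. The share of all genes called can move with the samples left out as well. It is not set beside these counts, so they are no result about these 10 genes in particular. In iron-repleted rats the Slc26a3 difference of 0.65 turned to -1.01 without rat 3 (adjusted p = 0.0316, limma), ranged from -1.01 to 1.53 over the samples left out, and was -1.01 without the 2 stroma-high samples (adjusted p = 0.00726, limma). The cause was not tested. Counted over probe sets rather than genes, calls higher at the top made up 38.8% of those along the villus with values as deposited, instead of 47.0%. In iron-deficient against control rats the share of higher calls, also over probe sets, was 43.0% as deposited instead of 67.3%. In the top arrays it was 31.8% as deposited and 17.2% with median centring, instead of 47.1%. The number of arrays limits precision, and Car4 lies near background.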
